A study of Mus musculus with 6 samples.

Results

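The mitochondrial respiratory chain and ATP synthase are built from subunits encoded in the nucleus and in mitochondrial DNA, and the transcripts described here are those of the nuclear genes. They were taken by symbol, as the Nduf, Sdh, Uqcr, Cox4 to Cox8 and Atp5 families, with a mean of at least 1 RPKM (reads scaled by the length of a gene's model and the depth of the library) over all 6 libraries. Of 23446 rows with a gene symbol, 84 matched these names and 80 reached that mean. They comprised 35 genes of complex I, 4 of complex II, 8 of complex III, 14 of complex IV and 15 of complex V. The other 4 (Atp5s, Atp5sl, Cox7a2l and Ndufa4l2) carry such a symbol but are not counted as subunits here, and Ndufa4 was placed in complex IV, where its protein is found.

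The mouse embryos were of strain C57BL/6 and aged E11.5, and RNA came from their aorta-gonad-mesonephros (AGM), the tissue around the dorsal aorta in which blood stem cells first form. Embryos were wild type (tph2+/+), heterozygous (tph2+/-) or homozygous mutant (tph2-/-) for Tph2, which encodes a tryptophan hydroxylase, the first enzyme of serotonin synthesis. Each genotype had 2 libraries, and the series asked about serotonin made in the AGM and the survival of blood stem and progenitor cells. The labels speak of littermates but do not tie libraries to litters. Nor do they tell whether embryos were pooled, or which part of Tph2 was disrupted.

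Electrons from NADH enter the chain at complex I and those from succinate at complex II, pass through ubiquinone to complex III and by cytochrome c to complex IV, where oxygen is reduced. Complexes I, III and IV pump protons across the inner mitochondrial membrane, and complex V (ATP synthase) uses the gradient to make ATP. Many promoters of these genes in mammals lack a TATA box and hold sites for the transcription factors NRF1 and GABP, an ETS family protein.

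The read totals behind the values, estimated from the steps between low RPKM values, were 46000000 and 44800000 (tph2+/+), 40400000 and 40800000 (tph2+/-), and 38800000 and 39200000 (tph2-/-). Tph2 itself lay between 0.0280 and 0.0764 RPKM in all 6 libraries, with the genotypes overlapping, so its level checks no label. All 5 endothelial markers (Cdh5, Pecam1, Kdr, Tek and Emcn) were present, at 3.52 RPKM or more in every library. Both tph2+/+ libraries and tph2+/- replicate 1 had Xist between 76.3 and 101 RPKM and a sum of Y-linked Ddx3y, Eif2s3y, Kdm5d and Uty under 0.1 RPKM. The tph2+/- replicate 2 and both tph2-/- libraries had a Y-linked sum between 33.3 and 38.6 RPKM. Sex pattern and genotype therefore cannot be told apart between tph2-/- and tph2+/+.

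Promoter sequence is shown for 5 of the 6 genes that passed the test described below, since Uqcrq had no window in the table used. Windows ran from 250 bases before to 50 after the RefSeq transcription start (GRCm38.p6), and 66 of the 80 genes had one. Stretches of these windows lying outside annotated exons, or 30 bases around a match, are printed 5′ to 3′ on the gene's strand, with matches to the NRF1 letters (GCGCA, any base, GCGC) or the ETS letters CCGGAAG (or their reverse complements) in capitals. They come from Ndufb4 at chr16:37654454-37654618, chr16:37654428-37654457 and chr16:37654371-37654400, Sdhd at chr9:50603909-50603938 and chr9:50603877-50603906, Uqcr11 at chr10:80406831-80407030, Uqcr10 at chr11:4704345-4704544 and Cox6b2 at chr7:4753095-4753225, all on the minus strand.
Ndufb4, distal stretch: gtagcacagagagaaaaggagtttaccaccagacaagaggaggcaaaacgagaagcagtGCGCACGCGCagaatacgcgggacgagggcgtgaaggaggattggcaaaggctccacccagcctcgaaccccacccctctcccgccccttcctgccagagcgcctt
Ndufb4, NRF1 match 79 bases before the start: ccttgtgcgcGCGCAGGCGCacttcctgag
Ndufb4, NRF1 match 22 bases before the start: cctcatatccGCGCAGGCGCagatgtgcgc
Sdhd, NRF1 match 79 bases before the start: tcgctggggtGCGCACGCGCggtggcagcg
Sdhd, ETS match 46 bases before the start: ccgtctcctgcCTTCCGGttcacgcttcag
Uqcr11: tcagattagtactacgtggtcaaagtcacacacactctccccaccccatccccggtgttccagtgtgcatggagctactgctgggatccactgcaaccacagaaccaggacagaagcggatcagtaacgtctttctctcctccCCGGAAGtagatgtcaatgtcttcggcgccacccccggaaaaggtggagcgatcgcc
Uqcr10: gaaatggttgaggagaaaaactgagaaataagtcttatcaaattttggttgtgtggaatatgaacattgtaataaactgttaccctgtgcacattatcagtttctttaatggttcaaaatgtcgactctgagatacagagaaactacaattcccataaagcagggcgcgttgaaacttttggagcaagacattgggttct
Cox6b2: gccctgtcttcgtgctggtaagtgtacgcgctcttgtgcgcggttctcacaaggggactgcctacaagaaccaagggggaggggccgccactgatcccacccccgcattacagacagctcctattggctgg
The genes that passed did not share one promoter layout by these letters. Ndufb4 held the NRF1 letters at 3 places, Sdhd held both sets of letters once each, Uqcr11 held the ETS letters once, and the windows of Uqcr10 and Cox6b2 held neither. In the GENCODE annotation of GRCm38 the 6 genes lie at chr9:50596357-50603812 (Sdhd), chr11:53427922-53430831 (Uqcrq), chr16:37647170-37654453 (Ndufb4), chr10:80402997-80406830 (Uqcr11), chr7:4751792-4753094 (Cox6b2) and chr11:4701973-4704342 (Uqcr10), with no exon shared with another gene. The GENCODE model of Ndufb4 begins upstream of its RefSeq start. The stretch around the match 22 bases before that start lies wholly inside the model, and most of the stretch around the match at 79 bases does.

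Among the members, the NRF1 and YY1 letters were more frequent than among tested genes, and the ETS and TATA letters were about as frequent, as a description with no test. A gene was counted if any of its windows held a match on either strand. The NRF1 letters were found for 17 of 66 members (25.8%), against 1155 of 10011 tested genes and 5.19% of all genes with a window. The ETS letters were found for 16 members (24.2%), close to the 20.0% of tested genes. Letters bound by YY1, AAGATGGC, were found for 11 members (16.7%) against 5.27% of tested genes, and the end of the ETS letters can also begin these. The TATA letters TATAAA were found for 5 members (7.58%) against 8.57%. By complex, NRF1 or ETS letters were found for 9 of 14 genes of complex V, 11 of 31 of complex I, 3 of 3 of complex II, 3 of 5 of complex III and 3 of 10 of complex IV. A match is a run of letters and was not tied to binding or to the RNA level.

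Respiratory chain transcripts were abundant in the AGM. The median member stood at the percentile 93.6 of all 12869 tested genes, and the members together took 1.73% to 1.88% of the summed RPKM of the rows with symbols. The median RPKM of a subunit gene differed by complex, at 49.5 in complex I, 54.1 in II, 75.4 in III, 107 in IV and 128 in V, and this order held in all 6 libraries. The highest member was Atp5b, the catalytic beta subunit of ATP synthase, at a mean of 395 RPKM. Its partner in the catalytic ring, Atp5a1, had 249 RPKM. Cox4i1 and Cox8a led complex IV at 282 and 222 RPKM. In complex III the small subunits Uqcrq and Uqcr10 led at 137 and 125 RPKM, and the core protein Uqcrc2 was lowest at 44.6. Complex II spanned 50.6 RPKM for Sdhc to 57.1 for Sdhd, both membrane anchors. In complex I, the membrane arm subunits Ndufb10 (91.6 RPKM) and Ndufa11 (9.41 RPKM) marked the top and the bottom. Levels between genes are compared per length of gene model only.

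**Figure D1:**
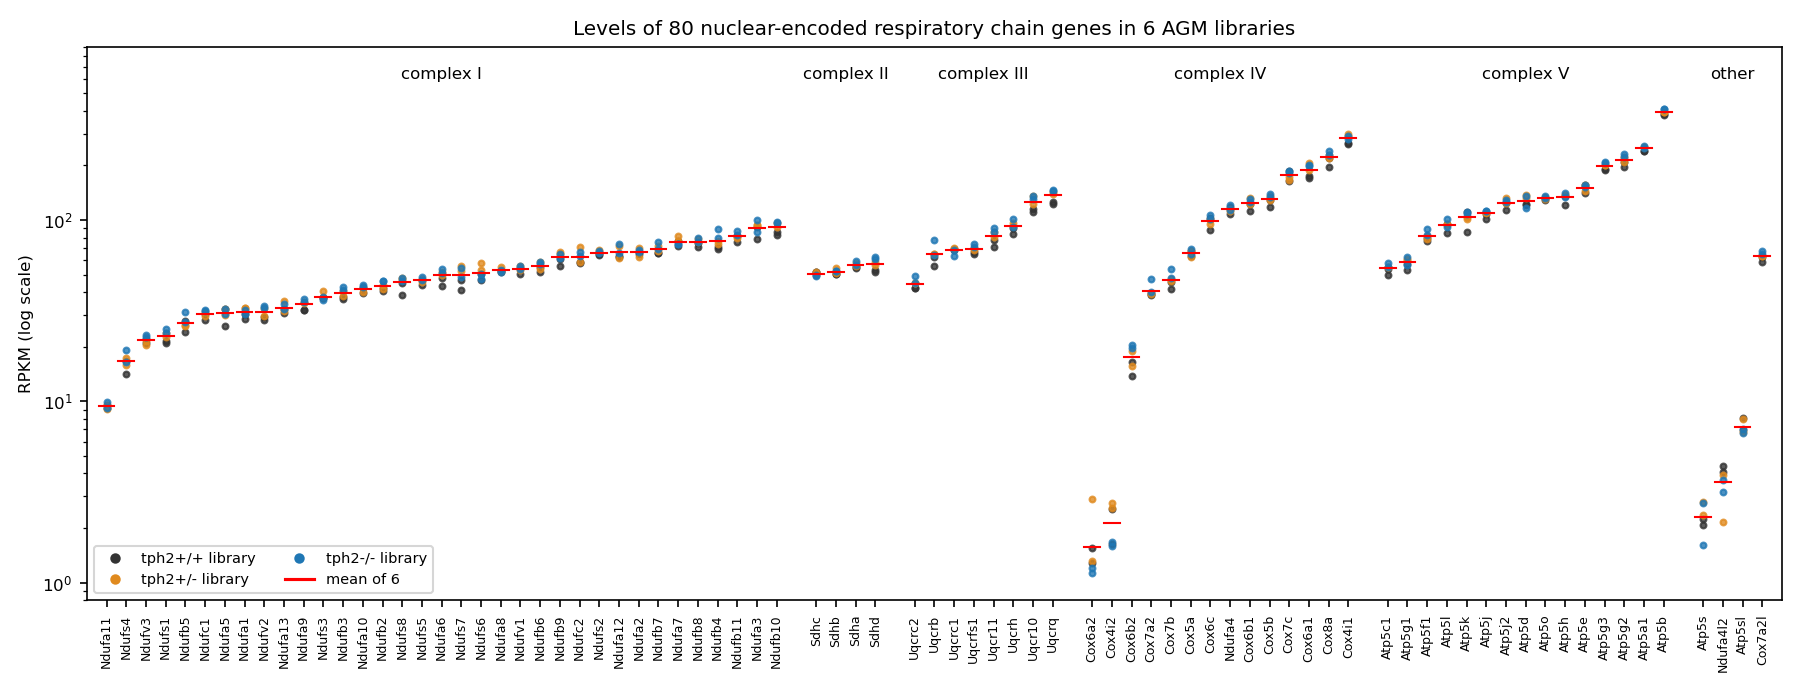
RPKM on a log axis of each of the 80 genes, ordered by level within its complex, with 1 point per library coloured by genotype and a red line at the mean of the 6. The points of a gene lie close together except in the low genes, and complex V sits highest with Atp5b at a mean of 395 RPKM.

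The low members were mostly isoforms and relatives known from other tissues or conditions. Just inside the limit of 1 RPKM lay Cox6a2 at 1.57, Cox4i2 at 2.13, Atp5s at 2.30 and Ndufa4l2 at 3.58 RPKM. Just outside lay Cox7a1 at 0.968, Cox8b at 0.450, Cox7b2 at 0.0471 and Cox8c, listed at 0 in every library. Cox6a2, Cox7a1 and Cox8b are the heart and skeletal muscle forms of their subunits, Cox7b2 and Cox8c are known from testis, and Cox4i2 from lung and low oxygen.

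Isoform use was one-sided in most families. Cox4i1 made up 99.0% to 99.4% of the subunit 4 RPKM, Cox6a1 98.5% to 99.4% of subunit 6a, Cox7a2 97.0% to 98.5% of subunit 7a and Cox8a 99.7% to 99.9% of subunit 8. Subunit 6b was the exception, with Cox6b2, the form known from testis, at 11.9% and 11.0% (tph2+/+), 12.5% and 11.3% (tph2+/-) and 13.5% (both tph2-/- libraries). The tph2-/- shares lay above all others, although by at most a few percentage points. The c subunit of ATP synthase came mainly from Atp5g2 (mean 45.5%) and Atp5g3 (42.2%), with Atp5g1 at 12.3%. These genes encode the same mature protein. Of the 100-base words of Atp5g2, 34.7% also occur in annotated transcripts of other genes, so its share is uncertain.

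Most members varied little from library to library. The coefficient of variation over the 6 libraries was under 10% for 73 of 80 genes. The exceptions with the largest values were the low genes Cox6a2 (42.7%), Cox4i2 (25.8%), Ndufa4l2 (22.8%) and Atp5s (18.9%). Cox6a2 rested on 39 and 46 reads (tph2+/+), 35 and 78 (tph2+/-) and 29 and 31 (tph2-/-). The library with 78 reads, tph2+/- replicate 2, stood apart from the other 5, and so did its cardiac muscle markers. Myh6, a heart myosin, was at 16.8 RPKM there and at most 1.41 elsewhere, Nppa, an atrial hormone, at 3.93 against at most 0.338, and Tnnt2, a cardiac troponin, at 26.9 against at most 16.4. Actc1 was also highest there (153 RPKM), but Myh7 was not (8.84 RPKM, against 11.4 and 12.1 in tph2+/+). The part of these cells in the Cox6a2 values was not tested. Cox4i2 rested on 85 and 53, 81 and 77, and 45 and 48 reads in the same order, and in RPKM the tph2-/- libraries (1.60 and 1.68) overlapped tph2+/+ replicate 2 (1.63).

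The comparison of tph2-/- with tph2+/+ asked how the AGM transcriptome differs when Tph2 is lost. Respiratory chain transcripts were slightly higher in tph2-/-. The median log2 fold change was 0.12, or 8.45% on the scale of RPKM + 1, against 0.03 for all tested genes. Of the members, 71 of 80 were above 0 against 57.8% of all genes. Of the 80, 6 genes (7.50%) passed limma's test at an adjusted p under 0.05 as higher, and none as lower. That share lies near the background, since 5.84% of all tested genes were called higher and 3.81% lower, 9.64% in all. In 49 of 80 genes (61.3%) both tph2-/- libraries lay above both tph2+/+ libraries, against 35.7% of all genes, and in 3 they lay below both, against 24.2%. At an unadjusted p under 0.05, 29 members (36.3%) were higher and none lower, against 15.9% and 10.9% of all genes. In bulk tissue, a change in the mix of cells and a change of RNA per cell cannot be told apart.

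The size of this difference depended on single libraries. The summed RPKM of the 80 genes was 6293 and 6003 (tph2+/+), 6661 and 6431 (tph2+/-) and 6725 and 6646 (tph2-/-). Both tph2+/+ sums lay below the 4 others and the mutant genotypes overlapped each other. As shares of the summed RPKM of all rows with symbols, they were 1.80% and 1.73% (tph2+/+), 1.86% and 1.79% (tph2+/-) and 1.88% and 1.85% (tph2-/-). By share, tph2+/+ replicate 1 thus lay above tph2+/- replicate 2. With those sums made equal, the median log2 fold change against tph2+/+ was 0.07 in tph2-/- and 0.04 in tph2+/-. The tph2+/+ replicate 2 held the lowest value of 49 of the 80 genes and tph2-/- replicate 1 the highest of 35. An exact permutation test of 2 libraries against 2 cannot give a two-sided p below 0.333. Without tph2+/+ replicate 2 the median log2 fold change was 0.07 and no member was called, and without tph2+/+ replicate 1 it was 0.16 with 2 called. Without tph2-/- replicate 1 it was 0.09 with none called, and without tph2-/- replicate 2 it was 0.13 with 3 called.

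**Figure D2:**
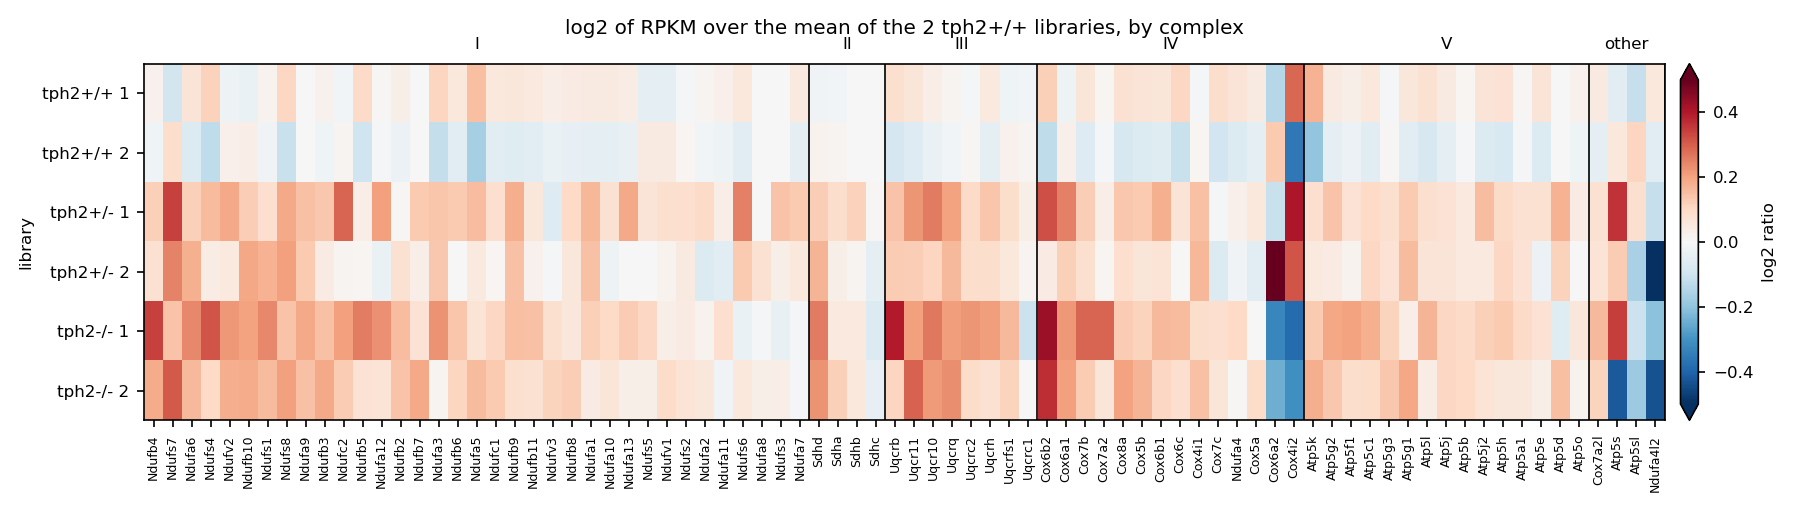
Each column is 1 of the 80 genes, grouped by complex and sorted by its difference between tph2-/- and tph2+/+, and each line is a library. Colour gives log2 of the RPKM over the mean of both tph2+/+ libraries, capped at 0.5 in either direction. Red prevails in the tph2+/- and tph2-/- libraries, and tph2+/+ replicate 2 is bluer than replicate 1.

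Complex III, which passes electrons from ubiquinone to cytochrome c, had the highest median of the 5 complexes, a log2 fold change of 0.19, and held 3 of the 6 called genes. In 7 of its 8 genes (87.5%) both tph2-/- libraries lay above both tph2+/+ libraries, against 35.7% of all genes. The 3 called genes of complex III all encode small subunits without a redox centre. Uqcrq stood at 126 and 123 RPKM (tph2+/+), 143 and 139 (tph2+/-) and 144 and 146 (tph2-/-). Its tph2+/+ libraries lay below all 4 others, and the log2 fold change of tph2-/- was 0.22 ± 0.05 (SE; limma adjusted p = 0.0281). Uqcr11 stood at 77.2 and 70.9, 86.4 and 80.6, and 85.4 and 90.9 RPKM in the same order. Its log2 fold change was 0.25 ± 0.06 (SE; limma adjusted p = 0.0444), and its mutant genotypes overlapped each other. Uqcr10 stood at 116 and 111, 135 and 122, and 136 and 131 RPKM. It differed by 0.24 ± 0.06 (SE; limma adjusted p = 0.0484), again with tph2+/+ lowest. Uqcrb, the ubiquinone-binding protein of the complex, had as large a log2 fold change, 0.25 ± 0.09 (SE), but missed the threshold (limma adjusted p = 0.124). Its values were 62.6 and 55.8 RPKM in tph2+/+ and 77.9 and 63.9 in tph2-/-, so tph2-/- replicate 2 lay only just above tph2+/+ replicate 1. The subunits of the core, Uqcrc2 (0.15) and Uqcrfs1, the Rieske iron-sulfur protein (0.14), did not pass, and Uqcrc1 had -0.05 with overlapping libraries.

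**Figure D3:**
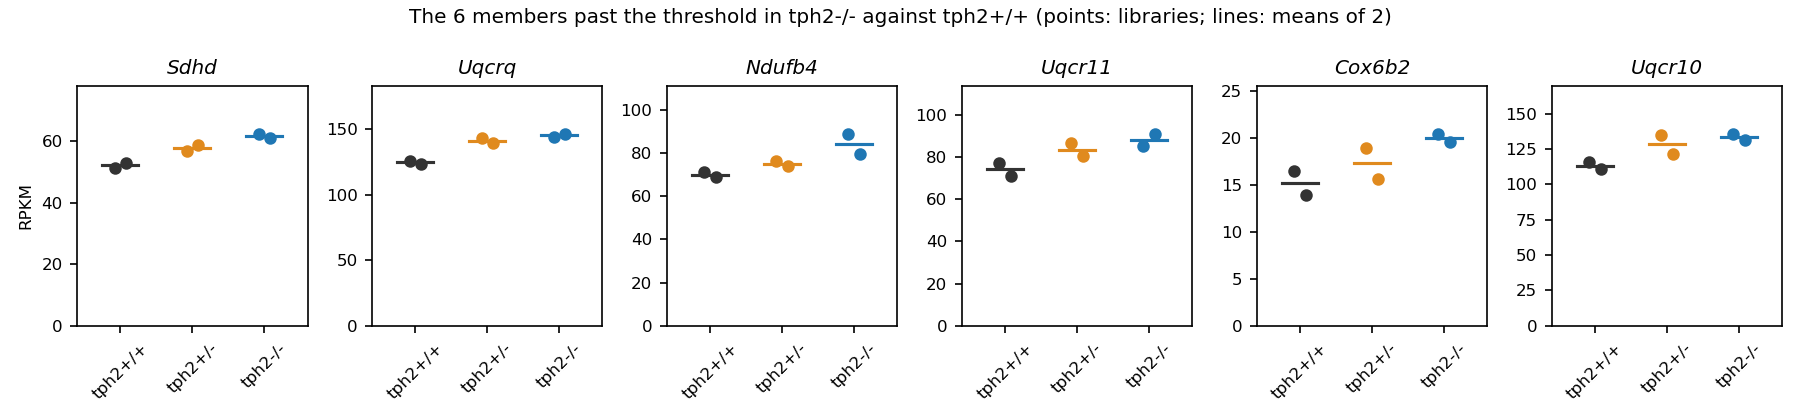
RPKM of the 6 genes that passed the test in tph2-/- against tph2+/+, with 1 point per library and a line at the mean of each pair, on axes from 0. In all 6 the tph2-/- points lie above the tph2+/+ points, by 16.5% of the tph2+/+ mean for Uqcrq to 31.9% for Cox6b2.

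Complex II oxidises succinate and is the only one encoded wholly in the nucleus. Its median log2 fold change was 0.07, the lowest of the 5, over only 4 genes. Sdhd, a membrane anchor, had the lowest adjusted p of all members. It stood at 51.4 and 52.8 RPKM (tph2+/+), 56.7 and 58.6 (tph2+/-) and 62.3 and 60.9 (tph2-/-). The 3 genotypes did not overlap, and Sdhd rose by 0.24 ± 0.05 (log2, SE; limma adjusted p = 0.0224) in tph2-/-, or 18.3% of its tph2+/+ mean. Of the other subunits, Sdha, the flavoprotein, had a log2 fold change of 0.08, Sdhb, the iron-sulfur protein, 0.05, and Sdhc, the other anchor, -0.05. None of those passed, and the difference between subunits was not tested.

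Complex I had a median log2 fold change of 0.12 over 35 genes, with 33 above 0 and 1 called. Ndufb4, a subunit of the membrane arm without a catalytic role, stood at 71.2 and 69.0 RPKM (tph2+/+), 76.2 and 73.9 (tph2+/-) and 88.9 and 79.7 (tph2-/-). Genotypes did not overlap, and the log2 fold change was 0.26 ± 0.06 (SE; limma adjusted p = 0.0342). Of its 100-base words, 16.0% also occur in 1 pseudogene copy elsewhere, so part of its reads could be split. Ndufs7, which carries the last iron-sulfur cluster before ubiquinone, stood at 41.3 and 46.8 RPKM (tph2+/+), 55.9 and 52.3 (tph2+/-) and 48.6 and 54.5 (tph2-/-). Its difference of 0.22 ± 0.08 did not pass (limma adjusted p = 0.107), and its tph2+/- libraries were as high as those of tph2-/-. Ndufb10 came close, with 0.19 ± 0.05 (limma adjusted p = 0.0557). Along the complex, the medians were 0.09 for the 9 genes of the NADH-oxidising module, 0.12 for the 5 of the ubiquinone-reducing module and 0.11 for the 19 of the proton-pumping module. These medians lay closer to each other than to that of all genes.

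Complex IV, cytochrome c oxidase, had a median of 0.13 over 14 genes, with 12 above 0 and 1 called. Cox6b2 stood at 16.5 and 13.9 RPKM (tph2+/+), 19.0 and 15.6 (tph2+/-) and 20.4 and 19.6 (tph2-/-). It had the largest log2 fold change of the members, 0.38 ± 0.10 (SE; limma adjusted p = 0.0482), and the tph2-/- libraries lay above the 4 others. Its ubiquitous counterpart Cox6b1 had 0.13 and did not pass. Cox6a1 missed the threshold at 0.21 ± 0.06 (limma adjusted p = 0.0570), with 170 and 176 RPKM (tph2+/+), 206 and 188 (tph2+/-) and 201 and 199 (tph2-/-). The 2 genes below 0 were the low isoforms Cox4i2 (-0.21) and Cox6a2 (-0.16), neither of which passed.

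Complex V showed the narrowest spread. All 15 of its genes had a log2 fold change above 0, from 0.04 for Atp5o, the stalk protein OSCP, to 0.17 for Atp5k, subunit e, with a median of 0.10. No gene passed limma's adjusted threshold, and 4 (26.7%) had an unadjusted p under 0.05. Genes higher at that p numbered 10 of 35 in complex I, 1 of 4 in II, 6 of 8 in III and 7 of 14 in IV. The share of all tested genes was 15.9%. Atp5b stood at 384 and 380 RPKM (tph2+/+), 396 and 395 (tph2+/-) and 408 and 410 (tph2-/-). Its genotypes did not overlap, yet the log2 fold change of 0.10 ± 0.05 did not pass (limma adjusted p = 0.227). Atp5a1 differed by 0.08, Atp5c1, the central shaft, by 0.13, and Atp5g2 by 0.17 ± 0.06 (limma adjusted p = 0.116). Atp5k ranged from 85.5 to 111 RPKM within tph2+/+ alone.

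The genes that share a symbol family without being counted as subunits differed among themselves. Cox7a2l, described as linking complexes III and IV in supercomplexes, had a log2 fold change of 0.13. Whether it does so in these embryos was not tested. Ndufa4l2, a paralog of Ndufa4 known to be induced by low oxygen, had -0.25, with 4.42 and 4.09 RPKM (tph2+/+), 3.93 and 2.16 (tph2+/-) and 3.69 and 3.15 (tph2-/-). Both mutant genotypes lay below tph2+/+. Atp5sl had -0.12 and Atp5s -0.01, and none of the 4 passed limma's adjusted threshold, with 1 (Cox7a2l) at an unadjusted p under 0.05.

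Loss of 1 allele was compared with tph2+/+ in the same way, and these differences share the tph2+/+ libraries with those above. The median log2 fold change of the 80 genes was 0.09, or 6.30% on the scale of RPKM + 1, against 0.02 for all genes. Of these 80 genes 73 were above 0, against 58.6% of all genes. No member passed limma's adjusted threshold, where 6.08% of all genes passed, 4.13% higher and 1.95% lower. At an unadjusted p under 0.05, 14 members (17.5%) were higher and none lower, against 13.1% and 7.06% of all genes. In 47 genes (58.8%) both tph2+/- libraries lay above both tph2+/+ libraries, against 32.3% of all genes, and in 1 they lay below, against 19.8%. The medians by complex were 0.09 for I, 0.06 for II, 0.12 for III, 0.11 for IV and 0.08 for V. All 8 genes of complex III lay higher in both tph2+/- libraries. Nearest to the threshold were Ndufs7, at 0.29 ± 0.08 (limma adjusted p = 0.0624), and Uqcrq, at 0.18 ± 0.05 (limma adjusted p = 0.0729). The tph2+/- replicate 1, which had the female pattern of Xist like both tph2+/+ libraries, gave a median of 0.12 when taken alone, and tph2+/- replicate 2, with the male pattern, gave 0.06.

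Between tph2-/- and tph2+/- the median log2 fold change was 0.04, against -0.00128 for all genes, with 57 of 80 above 0 against 49.5%. No member passed limma's adjusted threshold, where 1.29% of all genes passed, 0.746% higher and 0.544% lower. At an unadjusted p under 0.05, 2 members (2.50%) lay in each direction, against 6.05% of all genes higher and 7.09% lower. In 21 genes (26.3%) the tph2-/- libraries lay above those of tph2+/-, against 21.4% of all genes, and in 6 (7.50%) below, against 21.7%. Against the single tph2+/- library with the same male pattern, the median was 0.06, and against the other it was 0.00239. The difference between the mutant genotypes therefore rested on tph2+/- replicate 2.

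Other nuclear genes of mitochondria were set beside the members. Among 6 subunits or partners that the symbols do not catch (Ndufab1, Cyc1, Cycs, Usmg5, 2010107E04Rik and Atpif1), none passed in tph2-/- against tph2+/+, with a median of 0.14 and all 6 above 0. Assembly factors of complex I had a median of 0.08 over 16 genes, of complex III 0.07 over 6 and of complex II -0.01 over 4, with none called. Of 20 assembly factors of complex IV, with a median of 0.08, 1 was called. This was Cox17, a copper chaperone for cytochrome c oxidase, at 28.4 and 24.3 RPKM (tph2+/+), 32.2 and 32.9 (tph2+/-) and 35.1 and 35.9 (tph2-/-). It rose by 0.42 ± 0.07 in tph2-/- (limma adjusted p = 0.00787) and by 0.30 ± 0.07 in tph2+/- (limma adjusted p = 0.0447). The genotypes did not overlap. Complex V assembly factors numbered 3, with a median of 0.17 and none called by limma. At an unadjusted p under 0.05, higher genes numbered 2 among the 6 uncaught subunits, 1 among assembly factors of complex I, 1 of complex II, none of complex III, 3 of complex IV and 1 of complex V, with 1 lower, in complex II. Of all tested genes, 15.9% were higher at that p and 10.9% lower.

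The list of the tricarboxylic acid cycle, which supplies NADH and succinate, also held Pdha1, Pdhb and Dlat of pyruvate dehydrogenase. Its genes were all above 0 (16 of 16), with a median of 0.10 and 1 called. The called gene was Idh3a, a subunit of NAD-dependent isocitrate dehydrogenase, at 0.29 ± 0.06 (limma adjusted p = 0.0172). Of 6 carriers and porins, with a median of 0.08, Slc25a5, which exchanges ADP for ATP, was called at 0.28 ± 0.06 (limma adjusted p = 0.0180). Mitochondrial ribosomal proteins, which translate the subunits encoded in mitochondrial DNA, had a median of 0.10 over 76 genes, with 3 called higher (Mrpl36, Mrps26 and Mrps28). Genes that keep and transcribe mitochondrial DNA had a median of 0.05 over 12, and the regulators known to drive mitochondrial genes, among them Nrf1 at 0.03, had 0.02 over 6, with none called in either list. The regulator Ppargc1a, a coactivator of mitochondrial genes, was under 1 RPKM on average and was not tested. It stood at 0.442 and 0.491 RPKM (tph2+/+), 0.683 and 0.754 (tph2+/-) and 0.783 and 0.824 (tph2-/-), so the genotypes did not overlap. The medians of the ribosomal proteins and the cycle list lay near that of the members (0.12), and the median of the 6 tested regulators lay near that of all genes (0.03). At an unadjusted p under 0.05, 24 ribosomal protein genes, 6 genes of the cycle list, 2 genes of mitochondrial DNA and none of the 6 tested regulators were higher. None in these lists was lower. The shares of all tested genes were 15.9% higher and 10.9% lower. Against tph2+/+, tph2+/- gave medians of 0.09 for ribosomal proteins, 0.08 for the cycle list and -0.01 for the tested regulators.

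**Figure D4:**
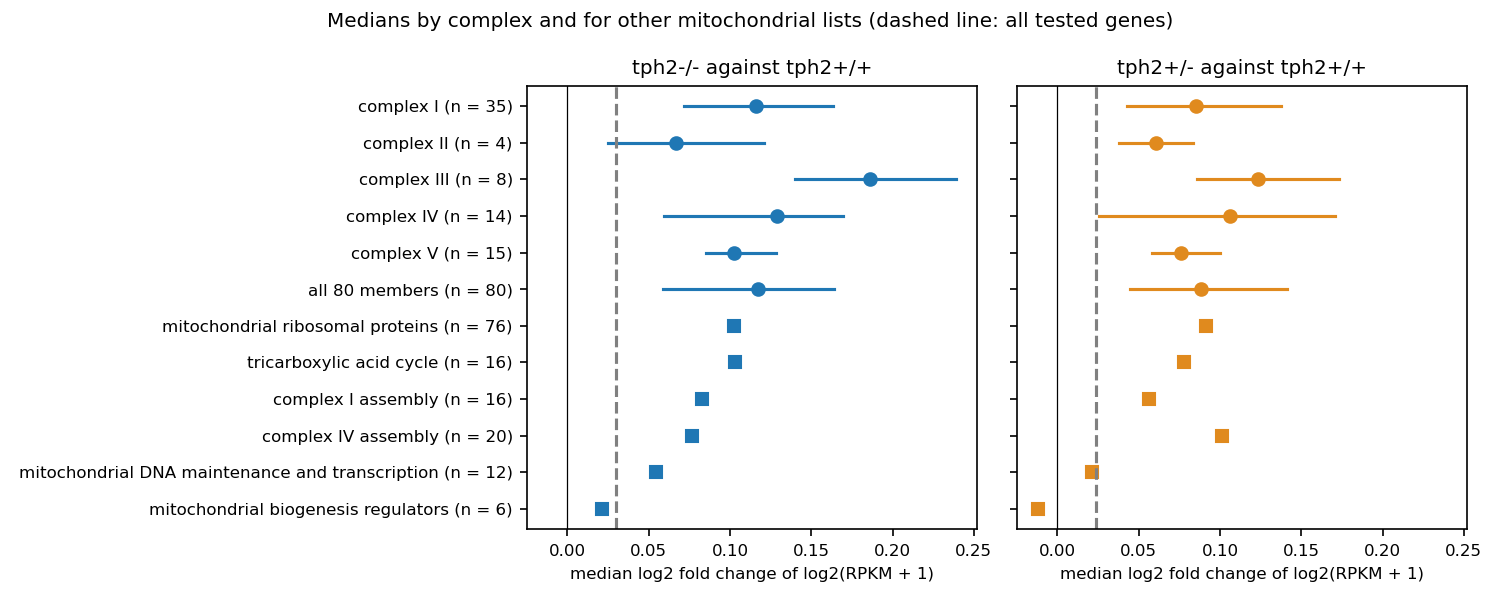
Median log2 fold change by complex, for all 80 members and for other mitochondrial lists, in tph2-/- (left) and tph2+/- (right) against tph2+/+. Bars on circles span the middle 50% of genes, squares are medians of lists without a range, and the dashed line is the median of all 12869 tested genes. Of the 5 complexes, III lies farthest right in both panels, at 0.19 and 0.12.

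Members are short genes, and outside the class under 500 bases (a median of 0.00371 for 275 other genes) shorter genes had higher medians in tph2-/- than longer ones. The median annotated exon length was 1587 bases for members and 4385 for all tested genes. Among genes of 500 to under 1000 bases the median log2 fold change of tph2-/- was 0.15 for 18 members and 0.10 for 259 other genes. Among genes of 1000 to under 2000 bases it was 0.13 for 30 members and 0.06 for 1337 others. At 2000 to under 4000 bases it was 0.08 for 20 members and 0.04 for 3736 others, and at 4000 or more 0.12 for 10 members and 0.02 for 7049 others. Members lay above other genes of like length in each of these classes. The part of length in the difference was not tested.

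**Figure D5:**
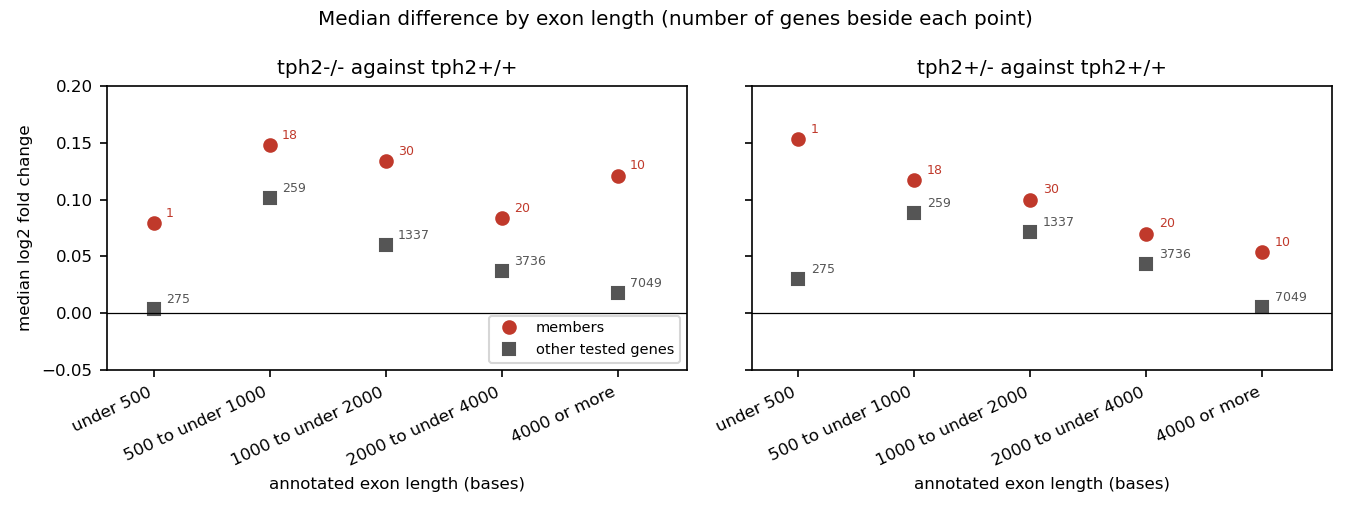
Median log2 fold change by annotated exon length for members (circles) and all other tested genes (squares), with the number of genes beside each point, for tph2-/- (left) and tph2+/- (right) against tph2+/+. Members lie above the other genes in every class, and the class under 500 bases holds 1 member.

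Markers of other cell types moved with genotype too. The summed RPKM of 6 hepatoblast markers was 36.6 and 35.4 (tph2+/+), 245 and 389 (tph2+/-) and 391 and 364 (tph2-/-), and all 6 rose in both mutants. Erythroid markers summed to 2932 and 2856, 3076 and 3882, and 3378 and 3570, with 4 of 6 called higher in tph2-/-. Most of that sum was Hba-x (mean 2845 RPKM in tph2+/+ and 3389 in tph2-/-), which was not called, and neither was Alas2. The called genes had far lower RPKM, among them Gata1 with a mean of 3.57 in tph2+/+ and 9.16 in tph2-/-. Neural markers summed to 18.0 and 17.2, 21.3 and 24.5, and 62.3 and 66.8, with 5 of 5 higher in tph2-/-. Skeletal muscle markers fell in tph2-/- in 5 of 5, summing to 212 and 216 (tph2+/+), 142 and 175 (tph2+/-) and 144 and 147 (tph2-/-). Smooth muscle markers summed to 135 and 137 (tph2+/+), 100 and 113 (tph2+/-) and 93.1 and 93.9 (tph2-/-). All 5 of these were below 0 in tph2-/-, and 4 were called lower. Markers of cardiac muscle, a tissue rich in mitochondria, summed to 167 and 172, 116 and 210, and 116 and 124, with 1 of 4 tested called lower. Macrophage markers had 2 of 4 tested called higher. Mesonephric markers went both ways, with 2 of 3 tested called lower and Pax2 higher (0.28) at an unadjusted p under 0.05. Of the untested mesonephric markers, Lhx1 was higher in tph2-/- (0.844 and 1.04 RPKM) than in tph2+/+ (0.261 and 0.308), and Pax8 was lower. Gonadal markers had 2 of 5 called lower, with Gata4 (0.08) and Lhx9 (0.15) above 0. Endothelial markers had none of 5 called by limma's adjusted p and all 5 below 0 in tph2-/-, 1 of them at an unadjusted p under 0.05. No marker of the 52 was listed at 0 in any library. The part of these cell types in the respiratory chain values was not tested.

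The 3 members on the X chromosome did not stand out. Ndufa1, Ndufb11 and Cox7b had log2 fold changes of 0.08, 0.11 and 0.21 in tph2-/- against tph2+/+, and none passed. With the Y-linked sum as a term in the fit, no member was called higher and the median was 0.16. In that fit Cox6a2, highest in the library with high Myh6 and Nppa, was called lower. Exons of 28 members overlap another gene in the annotation, in 10 of them over more than 10% of their length (39.0% in Ndufb6 and 19.7% in Uqcrc2), and without strand their reads could not be separated.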

How the data were processed

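RNA sequencing libraries were made from about 1 µg of total RNA with a TruSeq RNA v2 kit, which keeps no strand, and read as pairs of 150 bp, per the labels' protocols. The authors deposited 1 table of RPKM values with a column per library. Per the submitters' processing notes, TopHat2 2.0.9, HTSeq 0.5.3p9 and the build GRCm38 were used; the gene models and the reads counted in the denominator are not given in the sources used here. Of 56826 rows, 33353 with clone identifiers and 27 with dates for symbols were left out.

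The 12869 genes averaging 1 RPKM or more were tested as log2(RPKM + 1) with limma 3.58.1 (R 4.3.3; lmFit, eBayes with trend and robust options) on all 6 libraries in 3 genotype groups, with Benjamini-Hochberg adjustment over all tested genes and a threshold of 0.05. A fold change on this scale understates low genes. The spread was pooled over genotypes, on 3 residual degrees of freedom. P-values measure the spread between libraries, which may be technical in part. Depth was estimated from read steps in 1889 single-exon genes, and reads of low members were recovered from the same steps. The fit was tested on simulated data.

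Members, gene lists and markers were chosen with earlier results of these data known. Named genes were every called member, the highest and lowest of each complex, those with the largest differences, isoform families and the genes that are not subunits; other members, and called genes of other lists, were named after their values were seen. Genes encoded in mitochondrial DNA were not analysed here. Exon lengths, overlaps and chromosomes came from GENCODE (79 of 80 members matched), promoters from RefSeq. Alternatives were another pseudocount (0.1), no filter on low values, quantile normalization, equal sums, a replicate block, a Y-linked term, no trend or robust options and leaving out each library. Same-numbered libraries of 2 genotypes had correlations of their deviations of 0.0330, 0.170 and 0.0727, so the numbers were not taken to pair them.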

Additional observations from a re-analysis of the deposited data

How the results depend on the processing

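The median log2 fold change of the members stayed above 0 in all 13 alternatives, from 0.07 to 0.16 in tph2-/- and from 0.04 to 0.12 in tph2+/- against tph2+/+. Between the mutants it ranged from 0.00239 to 0.06. The number of members called in tph2-/- against tph2+/+ (6) did not hold. It was 2 with no filter on low values, 1 with equal sums, 1 (lower) with the Y-linked term, 0 without the trend and robust options, 11 with the replicate block, and 0 to 8 when 1 library was left out. None of the 6 genes was called in all 13 alternatives: Sdhd was called in 7, Ndufb4 and Uqcrq in 6, Cox6b2 and Uqcr10 in 5 and Uqcr11 in 4. Leaving out 1 library gave 0 to 2 members called in tph2+/- against tph2+/+ (Cox6a2 higher and Ndufa4l2 lower without tph2+/- replicate 1, which leaves replicate 2 with its high cardiac markers), and 0 to 1 between the mutants, where the Y-linked term also gave 1 (Cox6a2). Over all genes, 1241 were called in tph2-/- against tph2+/+, 422 with the Y-linked term, 1649 with the replicate block and 383 to 1530 with 1 library left out. The split of 751 higher and 490 lower became 548 and 667 with quantile normalization and 585 and 746 with equal sums. In tph2+/- against tph2+/+, 782 became 325 to 805 with 1 library left out, and between the mutants 166 became 269 with the Y-linked term and 57 to 288 with 1 library left out. Where a genotype was left with 1 library, that library was assumed to vary like the others. For the 33 named members, 1287 values were recomputed. None of the 6 called genes changed sign in tph2-/- against tph2+/+, and 48 uncalled values did change sign. The cause of these changes was not tested, except that fewer libraries leave fewer residual degrees of freedom. At 29 to 196 reads, Cox6a2, Cox4i2, Atp5s and Ndufa4l2 were limited by depth.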
